A study of Mus musculus with 4 samples.

Results

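The genes of the proteasome and of its immune form, the immunoproteasome, were compared between CD8α+ and CD8α− dendritic cells of the mouse spleen. Members were the probe sets whose single gene symbol in the platform annotation starts with Psm, a letter from a to g and a digit. This gave 103 probe sets of 49 genes, out of 45037 probe sets and 18193 named genes on the array. The genes encode the core particle, its activators, the regulatory particle and assembly chaperones, apart from Psmc3ip and Psme3ip1, which share the spelling of the symbols but encode no subunit. Psme2, the β subunit of the activator PA28, was read by a probe set that carries the symbols Psme2 and Psme2b, so it could not be counted among the members. Of the 49 genes, 47 had at least 1 probe set bright enough to be tested (85 of the 103 probe sets). The other 2, Psma8 of the testis and Psmb11 of the thymic epithelium, were not above background on any array.

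RNA came from dendritic cells of the spleen of C57BL/6 mice, in 2 groups by the labels: CD8α+ cells and CD8α− cells, with 2 Affymetrix arrays each. No genotype, treatment, sex or age is given for either group, nor is it said how the cells were isolated or whether the arrays came from separate animals. Each p-value thus reflects the spread among these 4 arrays alone, and that spread may be technical. Signals are given after quantile normalization, as linear MAS5 signal. Differences are log2 signal in CD8α+ arrays minus CD8α− arrays, ± the standard error of the limma fit.

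The proteasome is a barrel of α and β rings that cuts ubiquitin-tagged proteins into peptides. The β subunits Psmb5, Psmb6 and Psmb7 carry its active sites, and interferon gamma induces Psmb8, Psmb9 and Psmb10, which replace them in newly built particles and change which peptides are made. Many of these peptides are carried by the TAP transporter into the endoplasmic reticulum and loaded onto MHC class I. CD8α+ dendritic cells are known for presenting antigens of other cells on MHC class I, and CD8α− cells mostly for presentation on MHC class II.

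The sequences just before the start sites of the immunoproteasome genes and their constitutive counterparts are shown because the comparison turns on these pairs. They are the 250 bases before the RefSeq start, build GRCm38.p6, 5′ to 3′ on the strand of the gene, with matches to 4 motifs in capitals; Psmb7 had no entry.
Psmb8, chr17:34197945-34198194, plus strand: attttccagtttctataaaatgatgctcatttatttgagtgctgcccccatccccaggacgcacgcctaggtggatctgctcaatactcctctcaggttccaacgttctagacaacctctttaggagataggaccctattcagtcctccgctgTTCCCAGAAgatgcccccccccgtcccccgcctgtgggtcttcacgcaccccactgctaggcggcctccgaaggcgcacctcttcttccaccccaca
Psmb9, chr17:34187331-34187580, minus strand: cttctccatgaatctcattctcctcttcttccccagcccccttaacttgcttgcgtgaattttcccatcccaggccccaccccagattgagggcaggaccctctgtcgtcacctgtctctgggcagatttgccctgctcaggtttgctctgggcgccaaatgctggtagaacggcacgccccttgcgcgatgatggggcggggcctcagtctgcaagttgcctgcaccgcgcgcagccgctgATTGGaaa
Psmb10, chr8:105938393-105938642, minus strand: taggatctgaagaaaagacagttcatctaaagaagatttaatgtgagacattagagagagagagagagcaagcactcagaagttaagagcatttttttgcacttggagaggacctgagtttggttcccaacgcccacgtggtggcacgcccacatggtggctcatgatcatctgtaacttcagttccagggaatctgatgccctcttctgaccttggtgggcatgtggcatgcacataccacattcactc
Psmb5, chr14:54617996-54618245, minus strand: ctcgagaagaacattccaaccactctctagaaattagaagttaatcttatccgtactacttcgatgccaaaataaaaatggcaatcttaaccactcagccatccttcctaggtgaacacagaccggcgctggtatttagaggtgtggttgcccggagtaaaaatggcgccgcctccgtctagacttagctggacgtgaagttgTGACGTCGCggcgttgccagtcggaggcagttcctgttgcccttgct
Psmb6, chr11:70525107-70525356, plus strand: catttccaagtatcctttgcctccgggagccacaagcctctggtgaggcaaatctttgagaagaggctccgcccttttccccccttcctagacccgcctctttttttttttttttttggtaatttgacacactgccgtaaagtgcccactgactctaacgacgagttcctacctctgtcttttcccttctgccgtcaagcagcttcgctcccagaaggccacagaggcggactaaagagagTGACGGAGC

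Both strands were searched for GAAA, any 2 bases and GAAA (interferon regulatory factors), TTCNNNGAA (STAT factors), TGACNNNGC (NFE2L1 and NFE2L2) and CCAAT (NF-Y). Psmb8 held 1 STAT match, which began 97 bases before the start. Psmb9 held 1 NF-Y match, 8 bases before the start, and Psmb10 held no match to any of the 4. Psmb5 and Psmb6 each held 1 NFE2L1 match, 47 and 9 bases before the start. Each printed window thus held at most 1 match. RefSeq windows were found for 41 of the 49 member genes, 44 windows in all. Of these 44, 3 held the interferon regulatory factor motif (6.82%, against 2.98% of all 32851 windows). They were those of Psmb3, Psmd4 and Psmd9, none of them an immunoproteasome gene. Further, 2 held the STAT motif (4.55% against 7.02%), 5 the NFE2L1 motif (11.4% against 10.2%) and 16 the NF-Y motif (36.4% against 33.9%). Psmb9 shares its start region with Tap1, a subunit of the peptide transporter: the genes run in opposite directions from starts 226 bases apart, so the NF-Y match lies before both.

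One array stood apart from the others. CD8α− replicate 2 was the dimmest before normalization: the medians of the deposited signals were 26.6 and 22.9 on the CD8α+ arrays, and 35.1 and 17.4 on CD8α− replicates 1 and 2. The ratio of 3′ to 5′ signal of the Gapdh controls was 1.53 and 1.56 on the CD8α+ arrays, and 2.02 and 10.7 on CD8α− replicates 1 and 2. The same ratio of the Actb controls was 1.69 and 1.62 on the CD8α+ arrays, and 1.67 and 0.759 on CD8α− replicates 1 and 2, so the 2 controls set that array apart in opposite directions. Across the 85 member probe sets, log2 signals correlated at r = 0.989 between the CD8α+ arrays and at r = 0.877 between the CD8α− arrays (across probe sets, which are not replicates). For the genes and the functional groups of members described below, the difference is therefore also given without CD8α− replicate 2. Group medians are given without CD8α− replicate 1 too. The labels were borne out by Cd8a, at least 69.4-fold brighter in CD8α+ cells, and at an unadjusted limma p under 0.05, 7 of 8 cDC1 markers were higher and 5 of 6 cDC2 markers lower. Markers of other cells differed too. The summed signal of 6 natural killer (NK) cell markers was 362 and 524 on CD8α+ arrays, against 2277 and 1263 on CD8α− arrays. Gzma alone gave 1555 of the 2277 on CD8α− replicate 1. At an unadjusted limma p under 0.05, 3 of the 6 were lower in CD8α+ cells, and Prf1 overlapped with a difference of 0.14. The sum of 5 neutrophil markers was 6926 and 7570, against 14479 and 11687, and 4 of the 5 were lower at that level. Each tested marker of both lists was above background on at least 1 array, and their part in the results below was not tested. Of the other marker lists, at the same level, 1 of 6 plasmacytoid dendritic cell markers, 1 of 4 T cell markers, 1 of 3 B cell markers and 2 of 5 macrophage and monocyte markers were lower, 1 B cell and 1 macrophage marker were higher, and 0 of 6 general dendritic cell markers differed. Of all genes tested, 7.13% were higher and 8.82% lower at that level. No erythroid marker was tested.

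No proteasome gene passed an adjusted p of 0.05 by limma over all 22519 tested probe sets, the lowest being 0.256, and over the whole array 0 probe sets passed (0% of genes). At an unadjusted p under 0.05, 1 of the 47 genes was higher in CD8α+ cells, against 7.13% of all 10532 genes tested, and 0 were lower, against 8.82%. The one gene was Psmf1. Differences ran from -0.75 (Psmd4) to 1.04 (Psmf1), with a median of 0.11, against -0.02 over all genes. Both CD8α+ arrays read above both CD8α− arrays in 18 of the 47 genes and below both in 10, against 25.6% and 28.3% of all genes. Without CD8α− replicate 2, 5 genes passed the unadjusted threshold, all higher (Psma5, Psmb5, Psmb8, Psmb9 and Psmf1), against 15.9% of all genes higher and 12.3% lower in that fit. Without CD8α− replicate 1, 6 were higher and 11 lower, against 22.7% and 21.4%. Without CD8α+ replicate 1, 0 passed in either direction, against 2% of all genes higher and 3.25% lower, and without CD8α+ replicate 2, 0 passed, against 1.92% and 4.31%. A fit without 1 array takes its spread only from the group that keeps 2 arrays. Counts without a CD8α− array thus rest on the spread of the CD8α+ arrays, and the reverse, and cannot be compared with each other. In bulk RNA, fewer cells of a type and less RNA per cell cannot be told apart.

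The median of the members was positive under each of the 4 scalings, but the number of genes that read higher depended on the scaling. On the deposited scale and with arrays centred on their medians, all 47 genes read higher in CD8α+ cells, but so did the median of all genes, by 0.67 and 0.69. With a common trimmed mean the median of all genes stood at -0.18. At an unadjusted p under 0.05, 3 members were higher on the deposited scale (Psma5, Psmb5 and Psmb9), against 10.6% of all genes, 2 with trimmed means (Psma5 and Psmb9), against 5.91%, and 20 with median centring, against 28.9%. None was lower in these 3 scalings, against 2.38%, 16.7% and 4.26% of all genes. Relative to that shift, the median member was 0.13 above all genes with quantile normalization, 0.24 on the deposited scale, 0.28 with trimmed means and 0.23 with median centring. Under all 4 scalings, 26 of the 47 genes stood above the median of all genes and 10 below it, and 11 changed sides. The excess was seen against CD8α− replicate 1: against that array alone, 32 genes read higher on CD8α+ replicate 1 and 33 on CD8α+ replicate 2, while against CD8α− replicate 2 it was 23 of 47 for each. Over all genes these shares were 49.5% and 50.1% against CD8α− replicate 1, and 46.2% and 46.7% against CD8α− replicate 2.

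Among the immunoproteasome genes counted as members, which leave out Psme2, Psmb9, the β1i subunit, had the largest difference. Its signals were 1358 and 1441 on the CD8α+ arrays, against 708 and 943 on the CD8α− arrays. Both CD8α+ arrays were above both CD8α− arrays, and the difference was 0.78 ± 0.33, or 1.71-fold, with a 95% interval of -0.11 to 1.67. By limma the unadjusted p was 0.0739 and the adjusted p 0.362. Leaving out CD8α− replicate 2 gave 0.98 and leaving out CD8α− replicate 1 gave 0.57, and the difference was above the median of all genes under each of the 4 scalings, by 0.79 to 1.07.

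Psmb8, the β5i subunit, did not separate the groups. Its brightest probe set read 1007 and 1107 on the CD8α+ arrays, against 669 and 1527 on the CD8α− arrays. The CD8α+ arrays thus lay between the CD8α− arrays, and the difference of 0.06 ± 0.50 had an interval of -1.27 to 1.40, which leaves room for a change of over 2-fold either way. Leaving out CD8α− replicate 2 gave 0.66 and leaving out CD8α− replicate 1 gave -0.53, so its sign rested on 1 array. A dim second probe set of Psmb8 read 46.6 and 44.1 on CD8α+ arrays, against 31.9 and 27.8 on CD8α− arrays, where 1 of them was not above background, with a difference of 0.61 ± 0.31 that was 0.51 without CD8α− replicate 2.

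Psmb10, the β2i subunit, was the immunoproteasome gene that read lower in CD8α+ cells, though by little. Its signals were 608 and 641 on CD8α+ arrays, against 681 and 715 on CD8α− arrays. The groups did not overlap, but the difference was only -0.16 ± 0.30 (interval -0.97 to 0.65). Relative to all genes it was -0.14 with quantile normalization and turned to 0.17, 0.21 and 0.16 on the deposited scale, with trimmed means and with median centring. Without CD8α− replicate 2 it was -0.12.

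All 3 constitutive catalytic subunits had positive differences, and none passed the test. Psmb5, the β5 subunit that Psmb8 replaces, had signals of 787 and 901 on CD8α+ arrays, against 524 and 751 on CD8α− arrays, a difference of 0.42 ± 0.35 that was 0.68 without CD8α− replicate 2. Psmb7, the β2 subunit that Psmb10 replaces, had 1516 and 1547, against 1078 and 1402, a difference of 0.32 ± 0.33 that was 0.51 without that array. Both genes separated the groups. Psmb6, the β1 subunit that Psmb9 replaces, had 1197 and 1320.3 on CD8α+ arrays, inside the range of 1542 and 798 on CD8α− arrays. Its difference of 0.18 ± 0.44 turned to -0.29 without CD8α− replicate 2.

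**Figure D1:**
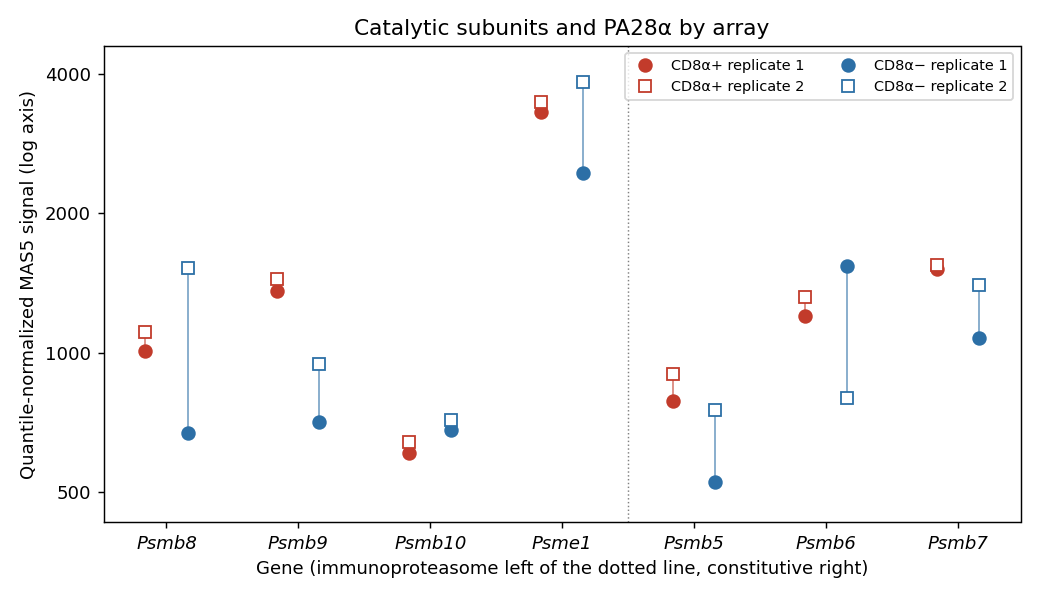
Quantile-normalized MAS5 signal (vertical log axis) of 7 genes on each array, CD8α+ arrays in red left of CD8α− arrays in blue, with lines joining the 2 arrays of a group. Heights compare arrays within a gene, not genes with each other; Psmb9 on both CD8α+ arrays (1358 and 1441) lies above both CD8α− arrays (708 and 943), while for Psmb8 the CD8α− arrays span the CD8α+ ones.

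Setting each immunoproteasome subunit against the constitutive subunit it replaces removes a factor common to all probe sets of an array. Changes that differ between probe sets, or that quantile normalization makes by signal level, are not removed. The level of such a ratio also carries the affinity of the probe sets, so only its change between arrays is read. The log2 ratio of Psmb9 to Psmb6 was 0.18 and 0.13 on CD8α+ arrays, against -1.12 and 0.24 on CD8α− arrays, which span the CD8α+ values. The ratio of Psmb8 to Psmb5 was 0.36 and 0.30 on CD8α+ arrays, against 0.35 and 1.02 on CD8α− arrays. These 2 ratios overlapped between the groups after normalization, with the CD8α− arrays 1.36 and 0.67 apart and the CD8α+ arrays 0.05 and 0.06 apart. The ratio of Psmb10 to Psmb7 was -1.32 and -1.27 on CD8α+ arrays, against -0.66 and -0.97 on CD8α− arrays, lower in both CD8α+ arrays. The means differed by -0.48, by -0.35 on the deposited scale, and by -0.63 without CD8α− replicate 2. Without that array the means of the other ratios differed by 1.28 for Psmb9 to Psmb6 and by -0.03 for Psmb8 to Psmb5. A two-sided exact permutation test of 2 arrays against 2 cannot give a p below 0.333, the value it gave for Psmb10 to Psmb7. It gave 1 for Psmb9 to Psmb6 and 0.667 for Psmb8 to Psmb5. On the deposited scale the Psmb8 to Psmb5 ratio was lower in both CD8α+ arrays, by -0.44 in the mean, but only by -0.05 without CD8α− replicate 2.

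**Figure D2:**
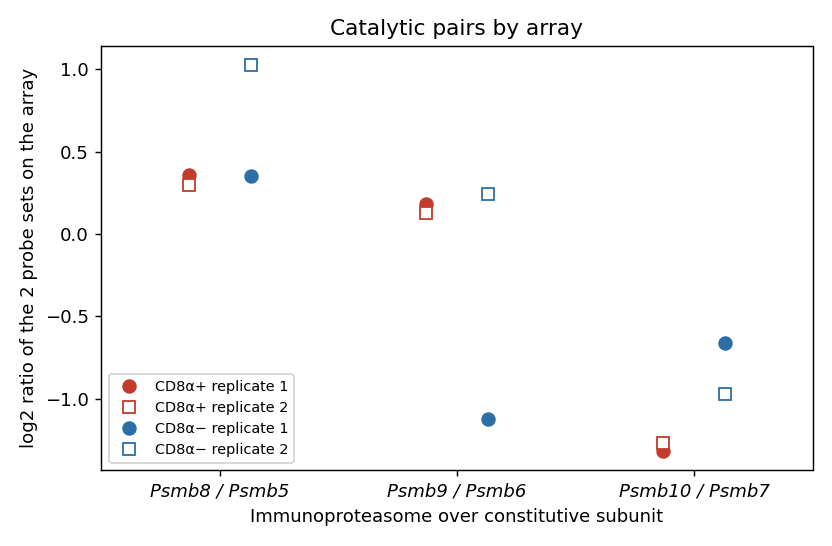
Log2 ratio of the immunoproteasome to the constitutive probe set (vertical axis) on each array for 3 catalytic pairs, CD8α+ arrays in red left of CD8α− arrays in blue. The CD8α+ arrays lie close together in every pair, and only the ratio of Psmb10 to Psmb7 (-1.32 and -1.27 against -0.66 and -0.97) separates the groups.

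Among the caps of the core particle, the immune activator PA28 was read through its α subunit. Psme1 had signals of 3309.8 and 3472 on CD8α+ arrays, against 2446 and 3848 on CD8α− arrays. The CD8α− arrays enclosed the CD8α+ arrays, and the difference was 0.14 ± 0.37, or 0.47 without CD8α− replicate 2 and -0.18 without CD8α− replicate 1. The probe set shared by Psme2 and Psme2b, which cannot be assigned to either gene, read 1739 and 1794 on CD8α+ arrays, against 1484 and 488 on CD8α− arrays. Its difference of 1.05 ± 0.62 was 0.25 without CD8α− replicate 2, so that array set most of it.

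Psmf1, the inhibitor PI31 that binds the core particle, gave the one call at an unadjusted p. Its brightest probe set read 79.1 and 75.6 on CD8α+ arrays, against 39.3 and 35.8 on CD8α− arrays, a difference of 1.04 ± 0.31 or 2.06-fold (unadjusted p 0.0228, adjusted p 0.256 by limma). The difference was 0.98 without CD8α− replicate 2. The 4 probe sets of Psmf1 did not speak with one voice: the others gave 0.68, 0.44 and -1.10, and 1.06, -0.23 and -0.29 without that array. The probe set at 0.68 was above background on both CD8α+ arrays and on neither CD8α− array, at least 1.18-fold brighter in CD8α+ cells. The probe set at -1.10 was above background on CD8α− replicate 2 alone. With the 4 averaged the difference was 0.27 and the unadjusted call was lost. The call was also lost with trimmed means (0.63), and, at differences of about the same size or larger, on the deposited scale (1.44), without CD8α+ replicate 1 (1.01), without CD8α+ replicate 2 (1.08) and with a replicate block (1.04). The nuclear activator PA28γ, Psme3, read 399 and 453 on CD8α+ arrays, against 381 and 160.1 on CD8α− arrays. Its difference of 0.78 ± 0.52 dropped to 0.16 without CD8α− replicate 2. Another probe set of Psme3, above background on every array, overlapped at -0.06 ± 0.34, and gave 0.17 without CD8α− replicate 2. Psme4, the activator PA200 known from spermatogenesis, differed by 0.30 ± 0.31, and by 0.24 without CD8α− replicate 2. The 5 tested probe sets of Psme4 ran from -0.32 to 1.34.

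In the α ring, whose 7 subunits gate the entry to the barrel, 4 genes read higher and 3 lower in CD8α+ cells. The median was 0.08, and 0.22 without CD8α− replicate 2, but it turned to -0.17 without CD8α− replicate 1. Psma5 had the highest difference. Its brightest probe set read 1339.8 and 1109 on CD8α+ arrays, against 643 and 761 on CD8α− arrays, with no overlap and a difference of 0.80 ± 0.33 (interval -0.07 to 1.67, unadjusted p 0.0633, adjusted p 0.345 by limma). It was 0.92 without CD8α− replicate 2. Another bright probe set of Psma5 read 699 and 723 on CD8α+ arrays, against 652 and 899.5 on CD8α− arrays, and gave -0.11 ± 0.34 (0.13 without CD8α− replicate 2), so the probe sets of this gene disagreed. Psma6 had the lowest difference of the ring, -0.35 ± 0.34, which was -0.12 without CD8α− replicate 2. Its 4 probe sets all read below 0, from -0.35 to -0.09.

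Of the 4 β subunits without active sites, 1 read higher and 3 lower in CD8α+ cells on the probe set that stood for each gene. Psmb1 read 1009 and 1142 on CD8α+ arrays, against 828 and 821 on CD8α− arrays, a difference of 0.38 ± 0.31 with no overlap, which was also 0.38 without CD8α− replicate 2. Psmb2 read 354 and 348, against 361 and 743, a difference of -0.56 ± 0.46. The gap of Psmb2 lay in CD8α− replicate 2, and without it the difference was -0.04. The same held for Psmb3, at -0.53 with all arrays and -0.08 without that array. Another probe set of Psmb3, above background on every array, gave 0.98, and -0.07 without CD8α− replicate 2. Psmb4 gave -0.29 on the probe set that stood for it, and 0.61 on an _x_at probe set that was above background on every array. Without CD8α− replicate 2 these were 0.25 and 0.20. The count and the group median thus depend on which probe set stands for a gene. The group median of -0.41 was -0.39 relative to all genes, and between -0.17 and -0.12 with the other scalings. With quantile normalization the group median turned to 0.10 without CD8α− replicate 2 and was -0.91 without CD8α− replicate 1.

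The regulatory particle recognises ubiquitin chains and unfolds substrates with a ring of 6 ATPases. Of the ATPase genes 2 read higher and 4 lower, with a median of -0.27 that was 0.08 without CD8α− replicate 2 and, relative to all genes, was -0.25 with quantile normalization and turned positive, 0.01 to 0.06, with the other scalings. Psmc5 had the highest difference (0.28 ± 0.35, and 0.03 without CD8α− replicate 2). Psmc6 had the lowest, with signals of 790 and 798 on CD8α+ arrays, against 1003 and 1383 on CD8α− arrays. Its arrays did not overlap, and the difference was -0.57 ± 0.34, or -0.34 without CD8α− replicate 2. Another probe set of Psmc6, above background on every array, overlapped between the groups. It gave -0.21 ± 0.38, and 0.08 without CD8α− replicate 2.

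Of 11 other regulatory particle subunits, 5 read higher and 6 lower, with a median of -0.09. The median turned to 0.02 without CD8α− replicate 2 and was -0.07 without CD8α− replicate 1. With all arrays and relative to all genes, it was -0.07, and 0.20 to 0.25 under the other scalings. Psmd1, the scaffold RPN2, read 349.6 and 368 on CD8α+ arrays, against 287 and 151 on CD8α− arrays (0.78 ± 0.43), and its difference was 0.32 without CD8α− replicate 2. Psmd4, the ubiquitin receptor RPN10, read 422 and 493, against 516 and 1146 (-0.75 ± 0.50), and -0.18 without that array. Other probe sets of Psmd4 gave -0.11 and 0.87, and -0.03 and -0.35 without that array. Both extremes of this group thus moved towards 0 without CD8α− replicate 2. Psmd2, the scaffold RPN1, was steady within groups, at 557 and 546 on CD8α+ arrays and 430.1 and 432 on CD8α− arrays, and its difference was 0.36 both with all arrays and without CD8α− replicate 2, within an interval of -0.45 to 1.16. The deubiquitinase Psmd14 read 956 and 1008 on CD8α+ arrays, against 979 and 1539.6 on CD8α− arrays, and its difference of -0.32 was 0.0043 without that array.

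**Figure D3:**
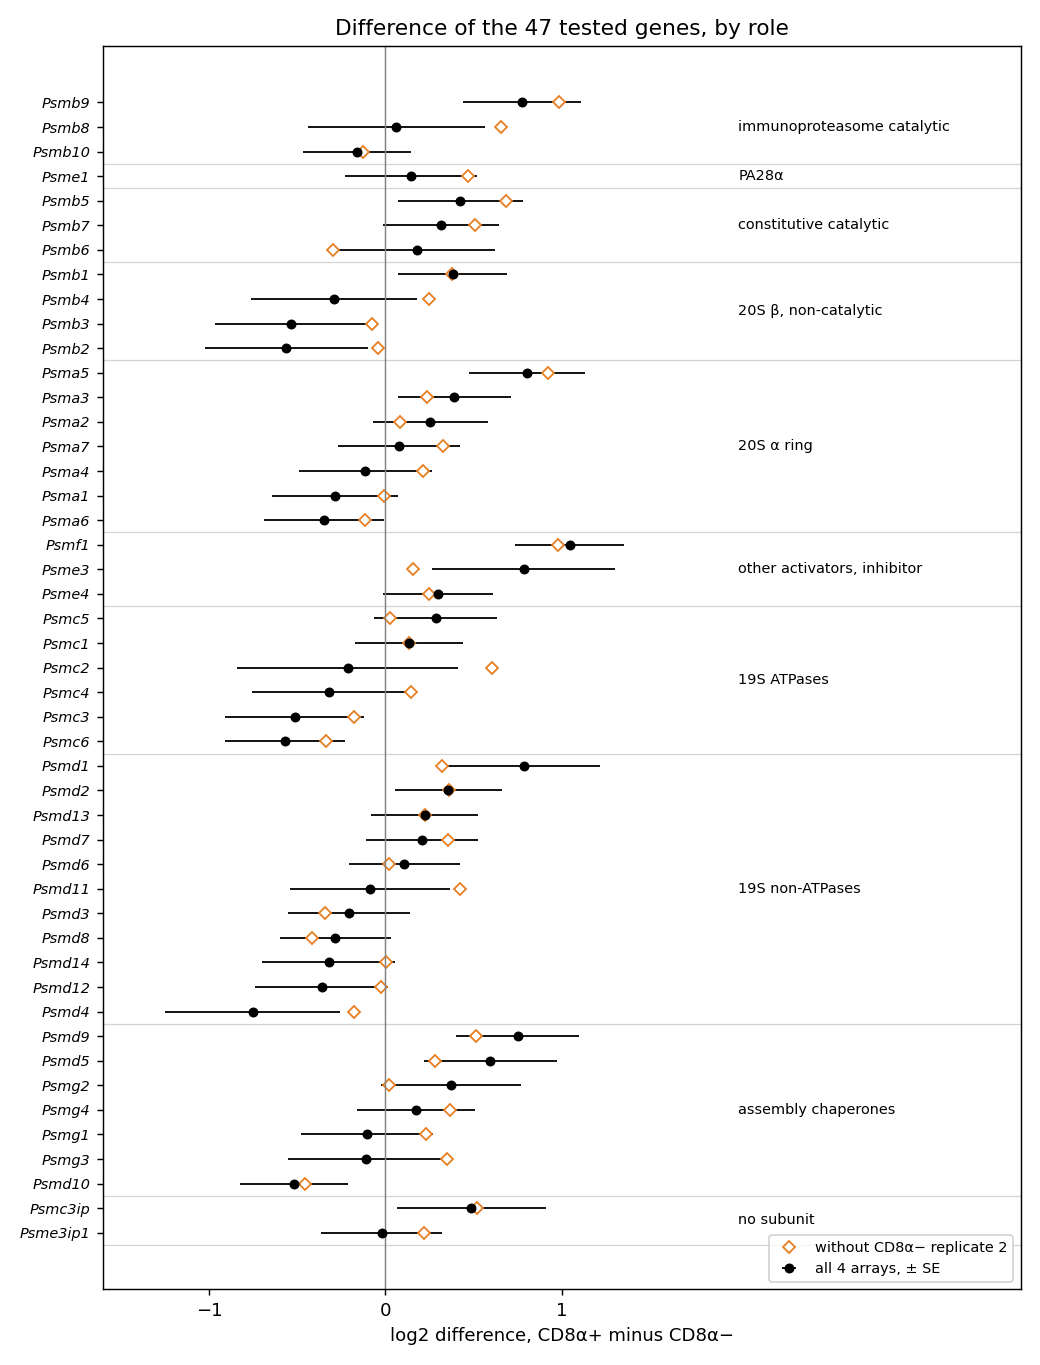
Log2 difference (horizontal axis, CD8α+ minus CD8α−) of the 47 tested genes, grouped by role, as black points with the standard error of the fit, and as open diamonds without CD8α− replicate 2. All points but Psmf1 lie within 1 log2 unit of 0, and the lowest ones, such as Psmd4 (-0.75 to -0.18), moved towards 0 when that array was left out.

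The chaperones that assemble the particle gave 4 higher and 3 lower differences, with a median of 0.17. The median was 0.28 without CD8α− replicate 2 and turned to -0.03 without CD8α− replicate 1. Psmd9 was highest at 0.75 ± 0.35 on its brightest probe set, with signals of 101 and 85.8 on CD8α+ arrays, against 65.3 and 47.1 on CD8α− arrays, but another probe set gave -0.48. Without CD8α− replicate 2 these were 0.51 and -0.27. Psmd10, the ATPase chaperone gankyrin, was lowest. It read 102 and 102 on CD8α+ arrays, against 139.9 and 153 on CD8α− arrays, a difference of -0.52 ± 0.31 with an interval of -1.33 to 0.30. It differed little between replicates and was -0.45 without CD8α− replicate 2. Of the genes that only share the symbol, Psmc3ip, a factor of meiotic recombination, differed by 0.49 ± 0.42 and Psme3ip1, which binds PA28γ, by -0.02 ± 0.34. Without CD8α− replicate 2 they were 0.52 and 0.22, so Psme3ip1 turned sign.

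Replicates of the members were close in CD8α+ cells and wide apart in CD8α− cells. The CD8α+ arrays differed by over 2-fold in 0 of the 47 genes and by a median of 0.09 log2 units, against 7.67% of all genes and a median of 0.19. The CD8α− arrays differed by over 2-fold in 7 of the 47 and by a median of 0.49, against 29.7% and 0.65. Both medians were lower for the members than for all genes. After normalization CD8α− replicate 2 read above CD8α− replicate 1 in 31 members (55.3% of all genes) and was the brightest of the 4 arrays in 22 (39.7% of all genes).

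Probe sets of the same gene disagreed more between the CD8α− arrays than between the CD8α+ arrays. Of 23 member genes with several tested probe sets, 14 had differences of both signs, against 51.1% of all such genes. They were Psma1, Psma5, Psma7, Psmb3, Psmb4, Psmc1, Psmd4, Psmd9, Psmd11, Psmd13, Psme3, Psme4, Psmf1 and Psmg2. The replicate difference spread over a median of 0.24 log2 units between probe sets of a gene on the CD8α+ arrays and 1.72 on the CD8α− arrays, against 0.44 and 1.39 over all such genes. It spread more on the CD8α− arrays in 22 of the 23 genes, and in 3753 of all 4619. Psmd6, the subunit RPN7, showed it most: one probe set read 1400.3 and 1217 on CD8α+ arrays, against 1286 and 1142 on CD8α− arrays, and the other read 796 and 701, against 551 and 18.3. The differences of these probe sets were 0.11 and 2.90. Without CD8α− replicate 2 they were 0.02 and 0.44. Psmb3 had 1 probe set at 989 and 1865 on the CD8α− arrays, brighter on replicate 2, and another at 450 and 104, brighter on replicate 1. Where each probe set lies along its transcript was not used here, and whether its position moves with this spread was not tested.

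**Figure D4:**
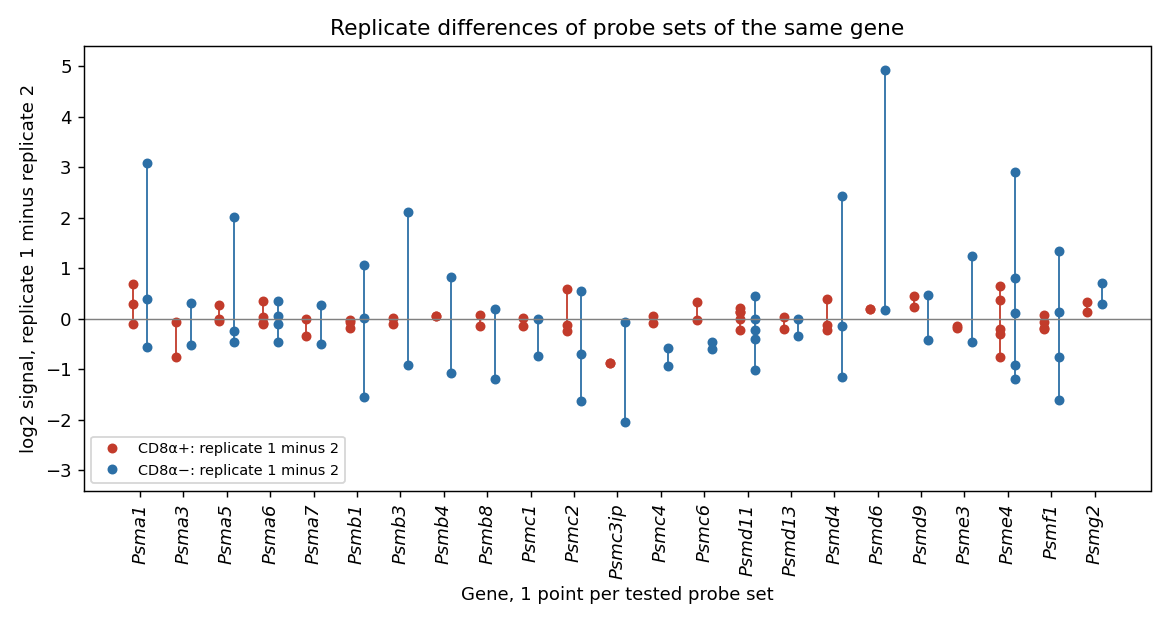
Log2 signal of replicate 1 minus replicate 2 (vertical axis) for each tested probe set of the 23 genes with several, CD8α+ arrays in red left of CD8α− arrays in blue, with a line from the lowest to the highest probe set. The CD8α+ lines are short (median 0.24) and the CD8α− lines long (median 1.72), the longest being Psmd6.

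Of 15 tested proteasome-associated genes, 0 passed an unadjusted p of 0.05 in either direction, against 7.13% of all genes higher and 8.82% lower. Their median was 0.13, against -0.02 over all genes. Pomp, the maturation factor of new core particles, read 1993 and 2116 on CD8α+ arrays, against 1383 and 1669 on CD8α− arrays (0.43 ± 0.32, and 0.57 without CD8α− replicate 2).

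Of 10 tested regulators of proteasome genes, 1 was higher and 2 lower at an unadjusted limma p under 0.05. Of all genes 7.13% were higher and 8.82% lower. The transcription factor Irf8 read 1379 and 1478 on CD8α+ arrays, against 555 and 392 on CD8α− arrays (1.61 ± 0.35, and 1.36 without CD8α− replicate 2). Interferon gamma, the classic inducer of the immunoproteasome, was not above background on either CD8α+ array and read 115 and 116 on the CD8α− arrays, at least 4.45-fold brighter there. Its fitted difference of -3.64, with or without CD8α− replicate 2, depends on the floor and its size is not exact. NK cells make Ifng, and 3 of their 6 tested markers were lower in CD8α+ cells at an unadjusted limma p under 0.05. Whether NK cells were the source of the Ifng signal was not tested. The interferon gamma receptor chain Ifngr1 read 257 and 233 on CD8α+ arrays, against 408 and 497 on CD8α− arrays (-0.88 ± 0.32, and -0.74 without CD8α− replicate 2). The difference of Ifngr1 turned to 0.12 on the deposited scale, though it was -0.56 relative to all genes there. These 3 calls had adjusted p of 0.186, 0.115 and 0.312 by limma. The other receptor chain, Ifngr2, did not pass and overlapped between the groups (0.64 ± 0.63, and 1.47 without CD8α− replicate 2). Another probe set of Ifngr2 gave 1.10, so the receptor chains did not read in one direction.

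Other inducers did not pass. Nlrc5, the transactivator of MHC class I genes, read 2055 and 2188 on CD8α+ arrays, against 1383 and 1037 on CD8α− arrays, with no overlap (0.82 ± 0.33, unadjusted p 0.0628 by limma, and 0.62 without CD8α− replicate 2). Irf1 (0.59 ± 0.59) and Nfe2l1 (0.62 ± 0.59), the factor that restores proteasome genes when the proteasome is inhibited, both turned below 0 without CD8α− replicate 2, to -0.18 and -0.14. Nfe2l2 separated the groups (1.27 ± 0.55, unadjusted p 0.0745 by limma, and 0.59 without CD8α− replicate 2). Another probe set of Nfe2l2 gave -0.73.

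Downstream of the proteasome, 1 of 11 tested genes of peptide trimming and transport was higher and 1 lower at an unadjusted limma p under 0.05. These counts stand against 7.13% of all genes higher and 8.82% lower. Lap3, the interferon-inducible leucine aminopeptidase, read 133 and 139.9 on CD8α+ arrays, against 36.6 and 47.7 on CD8α− arrays (1.71 ± 0.33, adjusted p 0.163, and 1.90 without CD8α− replicate 2). Thop1, a peptidase that degrades cytosolic peptides, gave -2.07 ± 0.61 (-2.65 without CD8α− replicate 2), but it was above background on no CD8α+ array and on 1 CD8α− array, so its size is not exact. Tap1, which shares its start region with Psmb9, read 975 and 1076 on CD8α+ arrays, against 705 and 415 on CD8α− arrays (0.92 ± 0.40, unadjusted p 0.0752 by limma). Psmb9 and Tap1 both separated the groups, but CD8α− replicate 2 was the brighter CD8α− array for Psmb9 and the dimmer one for Tap1. Without that array their differences were 0.98 and 0.54, and without CD8α− replicate 1 they were 0.57 and 1.30. The 2 differences were not tested against each other. Tap2 read 181 and 183, against 119 and 193, which overlapped (0.26 ± 0.38, and 0.61 without CD8α− replicate 2).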

How the data were processed

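Expression was measured on 4 arrays, 2 of CD8α+ and 2 of CD8α− cells, grouped by the titles in the labels. The authors deposited intensity values, linear signals with 1 value for each probe set on each array, made with MAS5 per the submitters' processing notes. To what level MAS5 scaled them is not stated. The design text and the labels' protocols describe RNA extraction and labelling differently. Since array medians differed, signals were quantile normalized on the log2 scale with limma 3.58.1 in R 4.3.3.

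Gene names came from the platform annotation. Of 45037 probe sets that are no controls, 34945 had 1 symbol, 932 several and 9160 none. All 103 member probe sets had an Entrez identifier in the RefSeq table, and 0 symbols changed. Values under 6.99, the mean 25th percentile, were set to it before taking log2. Probe sets with a mean signal at or above the median (23.0) were tested, 22519 in all, with lmFit and eBayes without trend, two-sided, Benjamini-Hochberg adjusted, with 2 residual and 2.48 prior degrees of freedom. The 95% intervals come from that fit. The brightest tested probe set stood for its gene, with _x_at probe sets used for genes that had no other. Background was the highest of 27 Bacillus controls on each array (20.1 to 39.6 on the deposited scale). "At least" folds set the brighter group against the higher of background and own signal.

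Named genes were the immunoproteasome and catalytic genes, the other caps, members with an unadjusted p under 0.05, the extremes of each functional group, and genes whose probe sets disagreed. Psmd2, Psmd6, Psmd14, Ifngr2 and Nfe2l2 were added after their values were seen. Members and lists were chosen with earlier results of these data known. The shared replicate numbers were not taken to pair the arrays, and whether they do is not known. The fit was run on simulated data in which all arrays of a probe set had the same spread. In the real data the CD8α− arrays lay further apart than the CD8α+ arrays. The simulation thus cannot show how well the p-values hold here. Figures were drawn with matplotlib 3.10.9, and tables handled with Python 3.11.15 and pandas 2.3.3. The precision is limited by the number of arrays.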

Additional observations from a re-analysis of the deposited data

How the results depend on the processing

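No member passed an adjusted p of 0.05 by limma under any of the 13 alternatives. Over all probe sets the count of 0 became 406 with median centring, 60 with an intensity trend, 37 with a filter at the 75th percentile and 14 with a replicate block, and ranged from 0 to 2887 with 1 array left out, the 2887 without CD8α− replicate 1. The same-numbered arrays deviated from their group means with a correlation of 0.03 across probe sets. With CD8α− replicate 2 apart from the other arrays, this cannot exclude a pairing, and the main fit was unpaired. The 1 member higher at an unadjusted p became 3 on the deposited scale, 2 with trimmed means, 20 with median centring, 3 with an intensity trend, 3 with no filter, 2 with the stricter filter, 3 with a floor at the median, 0 with probe sets averaged, 0 with the replicate block, and 0 to 6 with 1 array left out. Members lower became 1 with no filter and 0 to 11 with 1 array left out. Relative to all genes, the median of the immunoproteasome genes (0.12) ranged from -0.079 to 0.58 with 1 array left out, 0.58 without CD8α− replicate 2, and from 0.12 to 0.27 otherwise, and that of the other members (0.13) from 0.07 to 0.23 and from -0.0046 to 0.28. A group left with 1 array is assumed to vary like the other. At an unadjusted p, the share of all genes was not counted with an intensity trend, another filter or another floor. Nor was it counted with probe sets averaged or with the replicate block. The member counts of those fits thus cannot be compared with all genes.

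Psmb9 and Psma5 kept their direction under all 13 alternatives and passed the unadjusted limma threshold in 7 of 9 that keep all arrays. At that level 10.6% of all genes were higher on the deposited scale, 5.91% with trimmed means and 28.9% with median centring. With an intensity trend, another filter or another floor, the difference of Psmb9 stayed at 0.78 and only its p changed. The share of all genes was not counted in those fits. All these fits use the same arrays and are not independent. All 21 members with a negative difference turned positive on the deposited scale and with median centring. Among genes recomputed under every alternative, these were Psmb10 (0.84 and 0.84), Psmc6 (0.36 and 0.36), Psmd4 (0.22 and 0.22), Psma6 (0.59 and 0.59), Psmb2 (0.42 and 0.43), Psmd10 (0.31 and 0.31), and Psme3ip1 (0.91 and 0.91), and Ifngr1, no member, turned too (0.12 and 0.12). On these scales the median gene stood at 0.67 and 0.69. With trimmed means 5 members turned, Psmb10 (0.030), Psme3ip1 (0.10), Psmc3ip (-0.038), Psmd11 (0.07) and Psma4 (0.08), and Psmd4 turned to 0.0017 with its probe sets averaged. With 1 array left out, Psmb8 ranged from -0.53 to 0.66, Psme1 from -0.18 to 0.47, Psmb6 from -0.29 to 0.66, Psme3ip1 from -0.26 to 0.22, Tap2 from -0.084 to 0.61, Nfe2l1 from -0.14 to 1.38 and Irf1 from -0.18 to 1.35. Signals of the members were above background on all 4 arrays in each of the 47 representing probe sets. Psmf1 lay under the stricter filter and has no value there.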
